A study of Mus musculus with 16 samples.

Results

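The comparison described here is the difference between 2 stimulation responses, that of memory phenotype CD8 T cells minus that of naive CD8 T cells. CD8+ Thy1.2+ cells of female C57BL/6N mice aged 7 weeks were sorted by flow cytometry on surface CD44, a receptor that previously activated T cells carry at high density. CD44lo cells are called naive and CD44hi cells memory phenotype. Both were kept for 4 h either in plain medium (resting) or in medium with 10 ng/mL PMA plus 500 ng/mL ionomycin (stimulated). All 16 of the series' 16 arrays enter, 4 in each of the groups naive resting, naive stimulated, memory resting and memory stimulated, and no group carries a mutation or transgene. The design text says that sorting and culture were done on 4 independent occasions. CD44hi cells of unimmunised mice are a phenotype and not cells of a known antigen history, and the drugs act without the T cell receptor.

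PMA is a phorbol ester that acts on protein kinase C, and ionomycin lets calcium into the cell. Together they switch on the AP-1, NF-kappaB and NFAT transcription factors that signals from the T cell receptor reach. Within hours of such a signal a CD8 T cell makes immediate early transcription factors, then cytokines and chemokines, while genes of the quiescent state are shut down. Memory cells are known for starting effector genes faster than naive cells, and some of those genes are already held at a raised level before any signal. A difference of responses can therefore come from the resting level, from the stimulated level, or from both, and for the genes described at length the text gives the levels as well.

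Levels are log2 signal relative to the 75th percentile of the array, so that 0 is that percentile and a difference of 1 is a factor of 2. The response of a cell type is its stimulated minus its resting mean level, and the difference of responses is the memory response minus the naive response. It was tested for 18403 genes with limma (lmFit and eBayes, two-sided, Benjamini-Hochberg over all genes), and a gene was called at an adjusted p of 0.05. Unless another probe or setting is named, every adjusted p below comes from that fit. Each ± after a response or a difference of responses is its standard error (SE), and each ± after a group level is an SD.

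Before any comparison the arrays of each group were set against each other. The naive resting arrays numbered 2 and 3 differed over 10047 probes by a spread of 0.077, against 0.076 expected from probes spotted 10 times on the same array. They therefore differed by no more than the measurement noise and were counted as 1 sample, so that n = 3 for naive resting and n = 4 for the other groups. Arrays 2 and 3 were also the closest pair in the other groups, at 1.22, 1.82 and 2.25 times the spread expected from repeated spots in naive stimulated, memory resting and memory stimulated cells, against 2.64 or more for all other pairs of a group. Those pairs were kept apart, and the counts of list members with all 4 pairs averaged are given where they differ by over 1.5 times. Each group lay on a slide of its own, so slide and group cannot be told apart, and the number of an array was also its position on the slide. All 10 T cell and CD8 markers of a fixed list were tested, and their summed linear level was 324 to 578 across arrays, against 0.19 to 2.2 for 5 B cell markers and 1.76 to 23 for 11 myeloid markers. In such bulk RNA, fewer cells of a type and less RNA per cell cannot be told apart.

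The responses of the 2 cell types differed in 3102 of 18403 genes (16.9%). In 869 genes (4.72%) the memory response was the higher of the 2, and in 2233 genes (12.1%) it was the lower. Each cell type on its own changed many more, 12121 genes (65.9%) in naive and 12939 (70.3%) in memory cells. Memory and naive cells differed in 2814 genes (15.3%) at rest and in 4257 genes (23.1%) after stimulation.

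The split between higher and lower depended on how bright a gene was. Among 14308 genes well above background on all 16 arrays, 696 (4.86%) were higher and 1373 (9.6%) lower. Among 7655 genes with a mean level of 0 or more, 456 (5.96%) were higher and 320 (4.18%) lower, so there the order of the counts was the opposite. The share of called genes that were higher was 28.0% over all genes, 39.6% with quantile scaling, 46.6% with a repaired normexp background correction and 45.7% with the authors' deposited table of normalized values. With arrays 2 and 3 averaged in every group, 1908 genes were called, 307 higher and 1601 lower.

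The 456 bright genes with the higher memory response fell into several patterns. Of these, 165 rose in both cell types and rose more in memory cells, and 149 fell in both and fell less in memory cells. A further 59 rose in memory cells without a naive response past the threshold, and 67 fell in naive cells without a memory response past it. The pattern of 15 was a fall in naive and a rise in memory cells. Among the 320 bright genes with the lower memory response, 78 rose in naive cells without a memory response past the threshold. Another 67 fell in memory cells without a naive response past it. Opposite responses, up in naive and down in memory cells, were seen in 67. There were 59 that rose in both but less in memory cells, and 48 that fell in both but more in memory cells. In 231 of the 456 and in 168 of the 320 the difference between the cell types was larger at rest than after stimulation.

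**Figure D1:**
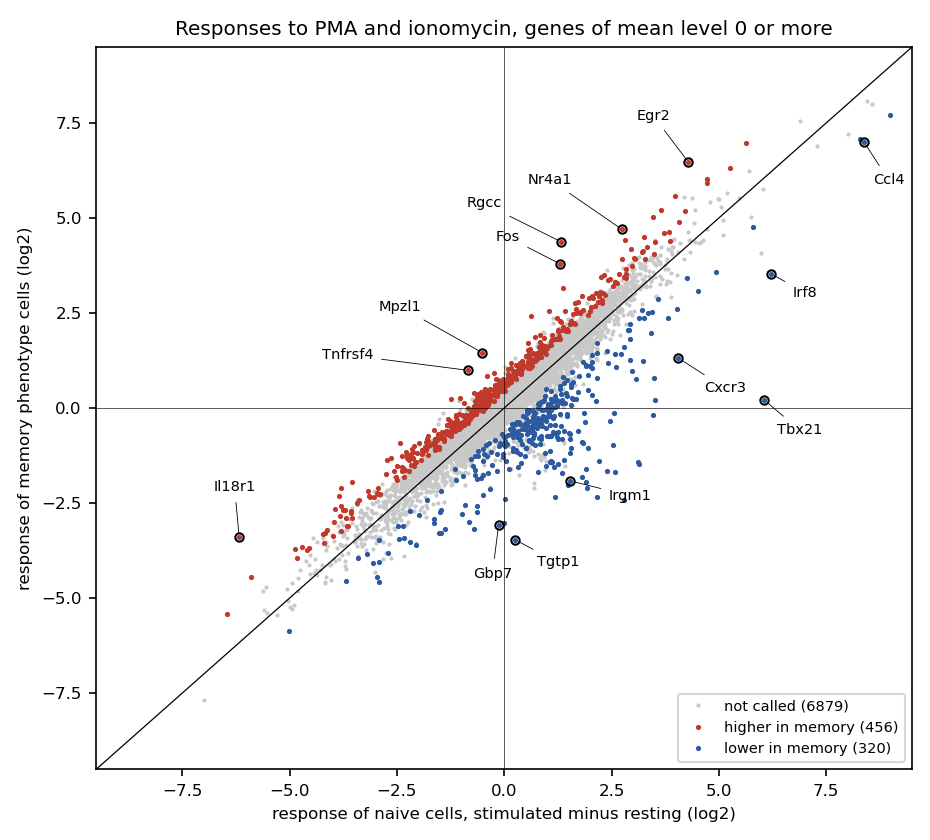
Memory response (vertical axis, log2) against naive response (horizontal axis, log2) for the 7655 genes with a mean level of 0 or more, with 1 point per gene and the diagonal marking equal responses. Red points (456) were called higher and blue points (320) lower in memory cells, and the lead genes of the text are circled; Tbx21 lies far below the diagonal, with a naive response of 6.06 and a memory response of 0.21.

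Of 28 immediate early and activation genes, 13 were higher in response in memory cells, 2 were lower and 13 were not called. The list holds immediate early genes, which T cells induce without new protein synthesis, among them AP-1 members, the EGR family and the NR4A nuclear receptors. It also holds other activation genes, such as Irf8 and Nab2. All 28 listed genes were tested, and the 13 made up 46.4% of them, against 4.72% of all genes tested, with a list median of 0.74 against 0.00 over all genes tested. Of the 28, 22 had a mean level of 0 or more, where 5.96% of genes were higher and 4.18% lower. This list, like the others, was chosen with earlier results of these data known. Of the 13, 11 were lower in memory than in naive cells at rest, and 1 was higher after stimulation. With arrays 2 and 3 averaged in every group 9 of the 28 were higher and 1 was lower, and leaving out any 1 sample gave 11 to 15.

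Fos, the partner of JUN in the AP-1 factor (probe at chr12:83478431-83478490, mouse build mm7), was at 1.01, 0.66, 0.75 and 1.1 on naive resting arrays 1 to 4 and at 2.11, 2.53, 2.47 and 1.83 on naive stimulated arrays. In memory cells it was at -1.53, -1.99, -1.8 and -1.4 at rest and at 1.74, 2.37, 2.12 and 2.24 after stimulation. The resting groups did not overlap, with memory cells the lower, while the stimulated groups did. The naive response was 1.3 ± 0.20 and the memory response 3.8 ± 0.19, a difference of responses of 2.5 ± 0.28 (adjusted p = 3.55e-05).

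Nr4a1, which encodes the orphan nuclear receptor NUR77 and is a common reporter of antigen receptor signalling, showed the same arrangement. Its naive resting levels were 5.92, 5.79, 5.79 and 5.84, and its memory resting levels 3.95, 3.67, 3.79 and 3.96. After stimulation the naive arrays gave 8.31, 8.75, 8.65 and 8.66 and the memory arrays 8.26, 8.52, 8.71 and 8.68. So the cell types were separate at rest, by -2.01, and mixed after stimulation, where the difference was -0.05 (adjusted p = 0.819). Its responses differed by 1.96 ± 0.19 (adjusted p = 1.1e-05).

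Egr2, a zinc finger factor that restrains T cell activation, was at 2.82 to 2.99 on naive and 0.82 to 1.32 on memory resting arrays, and at 6.68 to 7.33 and 7.10 to 7.76 after stimulation. Its difference of responses was 2.2 ± 0.27 (adjusted p = 7.42e-05). Rgcc, a regulator of the cell cycle that is not on the list, was at 4.99, 4.65, 4.58 and 4.30 on naive resting arrays and at 1.91, 1.59, 1.62 and 1.81 on memory resting arrays, and the stimulated arrays of both cell types overlapped between 5.32 and 6.57. Its difference of responses was 3.06 ± 0.40 (adjusted p = 0.000141). Atf3, a stress-induced factor of the same leucine zipper class as FOS, rose by 3.98 ± 0.20 in naive cells, against 5.57 ± 0.18 in memory cells.

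Other called members of the list were Nr4a3 (2.16 ± 0.56), Egr3 (1.97 ± 0.40), Nr4a2 (1.61 ± 0.46), Fosl1 (1.56 ± 0.44), Fosb (1.35 ± 0.32), Myc (1.3 ± 0.18), Ier3 (1.23 ± 0.29), Egr1 (1.13 ± 0.26) and Ier2 (1.02 ± 0.24), each value being the difference of responses. A second probe of Ier2 gave 0.65 (adjusted p = 0.293). A dimmer probe of Egr3 gave -0.17 (adjusted p = 0.905), so that gene rests on 1 probe. The 2 members lower in memory cells were Irf8 and Nab2, a corepressor of the EGR factors, at -0.68 ± 0.18. Irf8, an interferon regulatory factor, rose by 6.22 ± 0.21 in naive and 3.53 ± 0.20 in memory cells, from resting levels of -1.44 to -1.04 and 1.05 to 1.56 to stimulated levels that overlapped. Its second probe gave -3.02, close to the -2.69 ± 0.29 of the first.

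**Figure D2:**
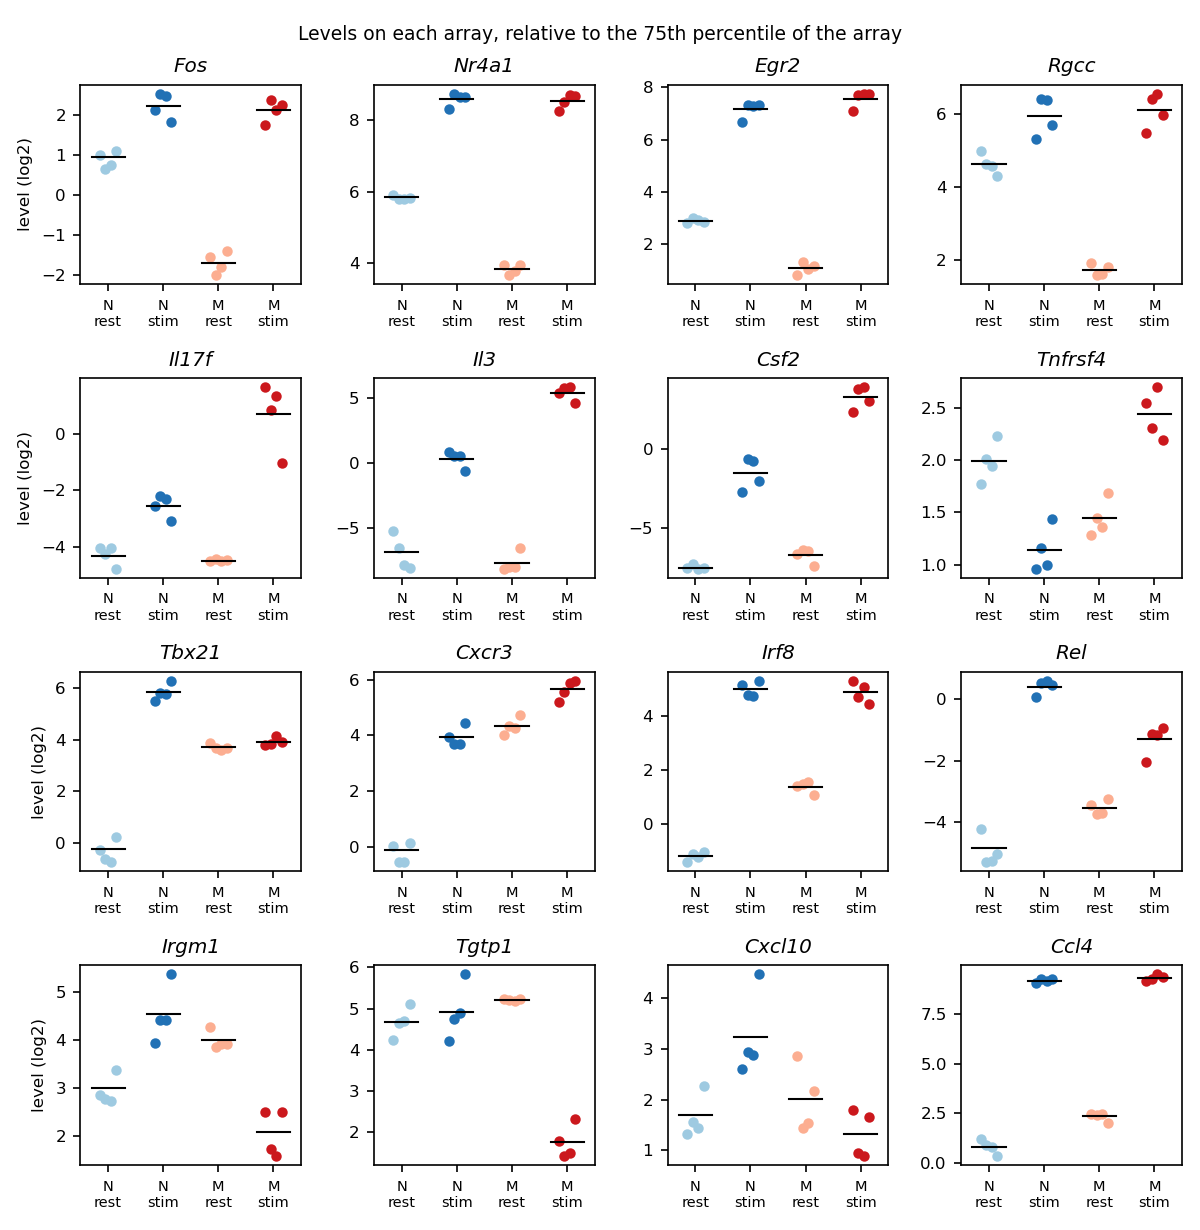
Level on each array (vertical axes, log2 relative to the array's 75th percentile) of 16 genes, with 1 point per array, arrays 1 to 4 from left to right, and a line at the group mean (N naive, M memory phenotype; naive resting arrays 2 and 3 count once in the mean). For Fos and Nr4a1 the memory resting points lie lowest and the stimulated points of both cell types overlap, while Il3 and Csf2 are highest in stimulated memory cells.

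Of 22 tested cytokine genes of 24 listed, 7 were higher in response in memory cells (31.8%, against 4.72% of all genes tested). Only 1 was lower (4.55%, against 12.1%), and the list median was 0.84. The 7 were Il3, Il17a, Il21, Csf2, Il10, Il22 and Il17f. Of these only Il17f was well above background on all 16 arrays. Among the 11 listed genes with such probes 1 was higher and 1 lower, with a median of 0.23. Il17a, Il21, Csf2 and Il22 were not well above background on any resting array, so a difference at rest could not be seen for them.

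Il3, a growth factor for blood cell precursors, was not well above background on any memory resting array, where its signal was -8.10, -7.99, -7.97 and -6.55. Stimulated memory arrays gave 5.33, 5.71, 5.79 and 4.61, and stimulated naive arrays 0.81, 0.49, 0.52 and -0.65. These groups did not overlap. The memory response was at least 2260-fold, taking the lowest signal well above background as the resting level of each array, and the test of the difference of responses gave an adjusted p of 0.00016.

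Csf2, which encodes the myeloid growth factor GM-CSF, is the neighbour of Il3 in the genome. Its stimulated levels were 2.36, 3.79, 3.9 and 3.0 in memory cells and -2.71, -0.63, -0.78 and -2.05 in naive cells. Neither resting group was well above background on any array, so the responses are bounds of at least 528-fold in memory and at least 17.8-fold in naive cells. Stimulated memory cells thus held the higher level on every array.

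Il21, a cytokine of helper and memory T cells, was well above background only on the 4 stimulated memory arrays, at -2.52, -2.67, -2.72 and -2.7. Its memory response was at least 8.74-fold, and stimulated memory cells were at least 7.37-fold above stimulated naive cells. Il22, an epithelial cytokine, was likewise above background only there, with at least 8.03-fold and 6.78-fold. Il10, an anti-inflammatory cytokine, reached a mean of -0.48 ± 0.75 in stimulated memory cells (n = 4) against -4.73 ± 0.42 in stimulated naive cells (n = 4).

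Il17f, a cytokine that acts on neutrophils and epithelia, was at 1.67, 0.87, 1.37 and -1.04 on stimulated memory arrays and at -2.54, -2.21, -2.32 and -3.07 on stimulated naive arrays, with resting levels of -4.78 to -4.04 in both cell types. Its responses differed by 3.41 ± 0.64 (adjusted p = 0.00244), and it kept its call with any sample left out (3.1 to 4.00). Il17a rose at least 60.7-fold in memory cells. Beside these stands Cd163l1, a scavenger receptor gene known from gamma delta T cells and the only 1 of 6 listed gamma delta markers that was tested. It was at 3.9 to 4.34 on memory resting arrays and at -2.11 to -0.72 on naive resting arrays, and its part in the interleukin 17 values was not tested.

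The principal CD8 cytokines did not differ in response past the threshold. Ifng, the gene of interferon gamma, rose by 8.58 ± 0.17 in naive cells, against 7.99 ± 0.16 in memory cells, a difference of -0.58 ± 0.24 (adjusted p = 0.113), and its second probe gave 0.68. Its level was higher in memory cells both at rest (0.53 ± 0.17, n = 4, against -2.04 ± 0.36, n = 3) and after stimulation (8.52 ± 0.12 against 6.53 ± 0.24, n = 4 each). The difference of responses was 0.91 ± 0.31 for Il2, a T cell growth factor (adjusted p = 0.0568). For Tnf it was 0.77 ± 0.38 (adjusted p = 0.185). In resting naive cells no array held Il2 well above background, so its naive response is a bound, at least 582-fold. The 0.91 of Il2 is thus a fitted value and no measure of size, and its missing call does not show equal responses. A second probe of Il2 gave 1.38 (adjusted p = 0.0717 in the limma fit). The only cytokine gene lower in memory cells was Ltb, lymphotoxin beta, which fell in both cell types, by 2.32 in naive cells, against 3.41 in memory cells.

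Of 16 tested chemokines, which attract other leukocytes, 2 were higher in response in memory cells (12.5%, against 4.72% of all genes tested). A further 5 were lower (31.2%, against 12.1%). Averaging arrays 2 and 3 in every group left 1 higher and 4 lower. Ccl1 was at 0.68, 1.09, 1.43 and -0.57 on stimulated memory arrays and at -6.99 to -5.09 on stimulated naive arrays, with a memory response of at least 86.6-fold. Ccl9 rose by 3.27 in naive and 5.15 in memory cells.

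Ccl3, Ccl4 and Xcl1, the chemokines that CD8 T cells release in bulk, were lower in response in memory cells, which held more of each at rest. Ccl4 was at 1.21, 0.89, 0.81 and 0.36 on naive resting arrays and at 2.48, 2.42, 2.45 and 2.03 on memory resting arrays. After stimulation it was at 9.08, 9.28, 9.16 and 9.26 in naive and at 9.16, 9.28, 9.51 and 9.39 in memory cells, so the stimulated groups overlapped and the resting groups did not. The difference of responses was -1.4 ± 0.24 for Ccl4, -1.2 ± 0.21 for Ccl3 and -1.26 ± 0.24 for Xcl1. Ccl5 rose by 1.73 in naive and 0.84 in memory cells, which held 4.45 more of it at rest, and a second probe gave a difference of -0.54 (adjusted p = 0.2).

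Cxcl10, a chemokine induced by interferon gamma, differed from these. Naive cells went from 1.32, 1.55, 1.44 and 2.26 to 2.61, 2.94, 2.89 and 4.47, and memory cells from 2.87, 1.44, 1.54 and 2.18 to 1.8, 0.95, 0.89 and 1.66. The stimulated groups did not overlap. The difference of responses, -2.22 ± 0.61 (adjusted p = 0.0232), missed the threshold without naive resting array 1 (adjusted p = 0.0508) and without naive resting arrays 2 and 3 (adjusted p = 0.055).

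Among TNF family ligands, 2 of 11 tested were higher and 2 lower (18.2% each, against 4.72% and 12.1% of all genes tested). Tnfsf11, the gene of RANKL, rose by 5.54 ± 0.26 in naive cells, against 7.51 ± 0.24 in memory cells, and a second probe gave a difference of 2.44. Tnfsf9, the ligand of the costimulatory receptor 4-1BB, rose by 2.58 in memory cells, and its naive response was 0.34. Fasl, the death ligand of killer cells, rose more in naive cells (3.84) than in memory cells (1.81), which held 5.29 more at rest and 3.27 more after stimulation. The probes of Tnfsf13b disagreed, with a difference of -0.98 for the brighter and 0.57 (adjusted p = 0.42) for the other.

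Of 23 tested transcription factors of effector and memory cells, 8 were lower in response (34.8%, against 12.1% of all genes tested). A further 2 were higher (8.7%, against 4.72%) and 13 were not called. The list median was -0.74, but -0.2 over the 21 members well above background on all 16 arrays, -0.21 with the authors' deposited table and -0.18 with the repaired normexp correction. Of the 8, 6 were already higher in memory cells at rest. The probes of 2 of the 8 hold a run of 6 bases from the C-rich telomere repeat, which is described below. With arrays 2 and 3 averaged in every group 5 were lower and none higher by the limma fit (9 and 2 at an unadjusted p of 0.05).

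Tbx21, which encodes T-bet, the master regulator of type 1 effector genes, had the most negative value among genes of mean level 0 or more that met the naming rule (probe at chr11:97207142-97207201, mm7). Naive cells went from -0.26, -0.61, -0.74 and 0.23 at rest to 5.48, 5.79, 5.75 and 6.27. Memory cells were at 3.86, 3.66, 3.6 and 3.69 at rest and at 3.81, 3.83, 4.12 and 3.91 after stimulation. The 2 memory groups overlapped, the others did not, and stimulated naive cells lay above stimulated memory cells on every array. The naive response was 6.06 ± 0.20, the memory response 0.21 ± 0.19 (adjusted p = 0.323), and the difference of responses -5.84 ± 0.28 (adjusted p = 8.47e-09), with -6.08 to -5.62 when any sample was left out.

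Bcl6, a repressor that opposes effector differentiation, rose in naive cells by 0.83 ± 0.29 and fell in memory cells by 0.96 ± 0.27. Gata3 (-1.26 ± 0.30), Maf (-1.56 ± 0.30), Rora (-0.97 ± 0.30), Hopx (-1.02 ± 0.17) and Zeb2 (-0.93 ± 0.29) were among the other factors lower in response. Leaving out 1 sample at a time ended the call of Rora for 10 of the 15 samples. A second probe of Maf gave -0.63 (adjusted p = 0.621), and of the other probes of Zeb2 1 dim probe gave 0.05. Id2 (0.82 ± 0.26) and Stat4 (0.53 ± 0.17), a transducer of interleukin 12 signals, were higher. Neither was called higher with quantile scaling or with the authors' deposited table, while the repaired normexp correction gave 3 higher in the list. A second probe of Id2 gave 0.97 (adjusted p = 0.0648 in the limma fit). Eomes, the relative of T-bet in memory CD8 cells, gave -0.81 ± 0.32 (adjusted p = 0.103).

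Of 34 tested interferon-inducible genes of a list of 36, 7 were lower (20.6%, against 12.1% of all genes tested). None was higher by the limma fit (11 lower and 1 higher at an unadjusted p of 0.05), and the list median was -0.74. With arrays 2 and 3 averaged in every group 6 were lower. The probes of 2 of the 7 hold a run of 6 bases from the C-rich telomere repeat, which is described below. All 7 were lower in memory than in naive cells after stimulation, and 2 were higher in memory cells at rest. Among them were Irgm1, Ly6a, Gbp7, Irf1, Igtp and Gbp2. IRF1 is a transcription factor of the interferon response, and IRGM1, IGTP and the GBPs are GTPases that take part in the defence against intracellular microbes.

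Irgm1 was at 2.85, 2.77, 2.72 and 3.38 on naive resting and at 3.94, 4.41, 4.42 and 5.36 on naive stimulated arrays. On memory resting arrays it was at 4.26, 3.85, 3.91 and 3.92 and on memory stimulated arrays at 2.5, 1.72, 1.58 and 2.49. Stimulated memory cells thus lay below stimulated naive cells on every array. Naive cells rose by 1.54 ± 0.31 and memory cells fell by 1.92 ± 0.29, a difference of responses of -3.46 ± 0.42 (adjusted p = 7.73e-05). Its other probes gave -3.13 and -3.25.

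Igtp rose by 1.07 ± 0.28 in naive cells, with array 4 highest at 7.48 against 6.27 to 6.34, and fell by 1.14 ± 0.26 in memory cells. Gbp7 had a naive response of -0.13 ± 0.29 and fell by 3.07 ± 0.27 in memory cells. Irf1 fell by 0.71 in naive cells, against 3.18 in memory cells, and a second probe gave a difference of -2.06 against -2.47 ± 0.29.

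Tgtp1 and Irgm2, GTPases of the same family that are not on the list and were named after their values were seen, did likewise. Tgtp1 was at 4.21, 4.75, 4.90 and 5.83 on naive stimulated arrays and at 1.78, 1.41, 1.47 and 2.32 on memory stimulated arrays, and at 4.23 to 5.23 on all resting arrays. Its naive response was 0.25 ± 0.32 (adjusted p = 0.502) and it fell by 3.47 ± 0.30 in memory cells. For Irgm2 the difference of responses was -2.42 ± 0.38 (adjusted p = 0.000611).

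The sequences before the start sites of 4 of these GTPase genes are shown because the genes moved together and each holds a match to TTCNNNGAA, the GAS element known from interferon gamma target genes. They are 30-base windows on the strand of the gene, from RefSeq promoters of 300 bases on GRCm38.p6, with matches to TTCNNNGAA and to the core of the interferon-stimulated response element, or ISRE (GAAA, any 2 bases, GAAA), in capitals.
Igtp: actagccatTTCTAGGAActGAAACTGAAA
Irgm2: actagccatTTCCAGGAActGAAACTGAAA
Tgtp1: actagccatTTCCAGGAAtcGAAACTGAAA
Gbp7: ccgttttctTTCCAGGAAaagcagaagcTT
The windows lie at chr11:58199502-58199531 (plus strand) for Igtp, chr11:58214893-58214922 (plus) for Irgm2, chr11:48992314-48992343 (minus) for Tgtp1 and chr3:142530221-142530250 (plus) for Gbp7, where the last capitals open a second TTCNNNGAA match. Igtp and Irgm2 share 29 of the 30 bases, Igtp and Tgtp1 27, and Irgm2 and Tgtp1 28. The first match begins 45, 75, 88 and 106 bases before the start site in that order.

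On either strand, TTCNNNGAA was found in 8 of 26 interferon-stimulated genes with a promoter in the table (30.8%), in 18 of 158 bright genes with the lower memory response (11.4%) and in 8.47% of all 27025 promoters. The ISRE core, searched after the windows had been read, was found in 16 of the 26 (61.5%), in 14 of the 158 (8.86%) and in 3.49% of all promoters. Irgm1 held 2 matches to the ISRE core and none to TTCNNNGAA. Among the 341 bright genes with the higher memory response that have a promoter in the table, the shares were 6.74% and 1.17%. AP-1 sites (TGANTCA) were found in 8 of the 26 interferon-stimulated genes (30.8%), 5 of 21 cytokine genes (23.8%), none of 22 immediate early and activation genes and 7.93% of all promoters. CRE (TGACGTCA), E-box (CACGTG) and EGR (GCGTGGG) motifs were in none, 3 (13.6%) and 3 (13.6%) of the 22 immediate early and activation genes, against 1.88%, 7.24% and 4.92% of all promoters. Among the 11357 tested genes with a promoter, CRE, E-box and EGR motifs were in 3.01%, 9.69% and 7.7%. AP-1, TTCNNNGAA and ISRE core matches were in 5.5%, 7.27% and 3.19% of them. In the 708 lower genes above background on all 16 arrays with a promoter, TTCNNNGAA was in 8.47% and the ISRE core in 4.52%. A match describes letters in this window and not a bound site.

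Of 26 chemokine receptor and homing genes tested, 8 were lower (30.8%, against 12.1% of all genes tested) and 1 higher. With arrays 2 and 3 averaged in every group 5 were lower. Of the 8, 7 were higher in memory cells at rest. Cxcr3, the receptor for CXCL10 that marks memory CD8 cells, was at 0.03, -0.54, -0.55 and 0.16 on naive resting and 4.02, 4.33, 4.25 and 4.73 on memory resting arrays, then at 3.93, 3.71, 3.69 and 4.43 and at 5.19, 5.56, 5.87 and 5.96. Memory cells were the higher on every array in both states, and the gap was smaller after stimulation (1.71 against 4.45), a difference of responses of -2.74 ± 0.33. Itgb1, the beta 1 integrin, rose by 1.34 in naive cells, with a memory response of 0.13. Gcnt1, an enzyme that builds selectin ligands, was the only gene higher in response (2.51 ± 0.58). Its probe was not well above background on all 16 arrays, and its other probes gave 2.41 and 2.62.

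Lectin-like NK cell receptor genes showed the same order. Of 22 tested, 7 were lower in memory cells (31.8%, against 12.1% of all genes tested) and none higher by the limma fit (8 and 1 at an unadjusted p of 0.05). All 7 were higher in memory cells both at rest and after stimulation. Only 6 of the 22 were above background on all arrays, and 3 had a mean level of 0 or more. Among all genes tested, lower calls made up 21.0% below a level of -4, 18.8% at -4 to -2 and 11.8% at -2 to 0. Genes of this cluster are close in sequence, so probes may not tell them apart. With arrays 2 and 3 averaged in every group 3 were lower. The 7 summed NK and NKT markers of the fixed list were at 0.658 to 0.733 on naive resting and 3.21 to 4.36 on memory resting arrays, and their part in these values was not tested.

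Of 26 cytokine receptor genes tested, 3 were higher (11.5%, against 4.72% of all genes tested), 5 were lower (19.2%, against 12.1%) and 18 were not called. Averaging arrays 2 and 3 in every group gave 2 higher and 4 lower. Il18r1 and Il18rap, the chains of the interleukin 18 receptor, fell in both cell types but less in memory cells. Il18r1 was at 1.55, 1.17, 1.05 and 2.24 on naive resting and at -5.01, -4.30, -4.23 and -4.63 on naive stimulated arrays, and at 3.25, 3.16, 3.09 and 3.71 and then -0.33, -0.19, 0.11 and 0.07 in memory cells. No groups overlapped, and the difference of responses was 2.79 ± 0.35 (adjusted p = 9.76e-05). The chains of the interleukin 12 receptor, Il12rb1 (-1.63 ± 0.36) and Il12rb2 (-1.45 ± 0.44), and Il15ra (-1.44 ± 0.37) were lower in response. Leaving out 1 sample at a time ended the call of Il12rb2 for 9 of the 15 samples, and that of Il12rb1 and Il15ra for none.

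Cd44 itself, whose protein defined the sort, rose by 3.81 ± 0.22 in naive cells, against 2.38 ± 0.20 in memory cells. It was at -0.74 to -0.44 on naive and 3.37 to 3.61 on memory resting arrays and the sort had chosen cells on its protein. Its responses differed by -1.43 ± 0.29, a second probe gave -1.53, and another, dim probe gave 1.41. With the mean of its probes the value was -0.51 (adjusted p = 0.273).

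**Figure D3:**
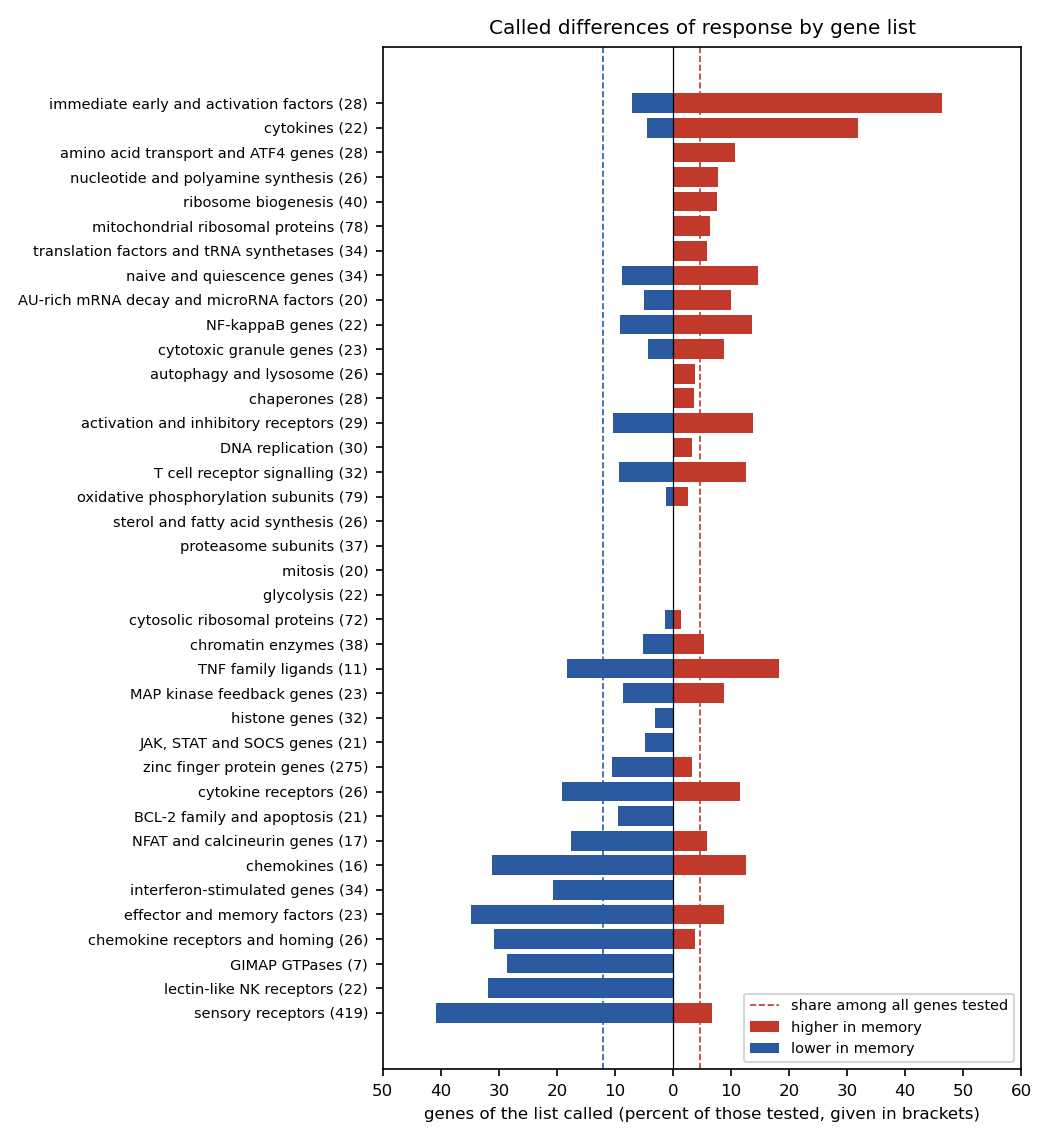
Share of the tested genes of each list that were called higher (red, to the right) or lower (blue, to the left) in memory cells, as percent, with the number tested in brackets. Dashed lines give the shares among all genes tested, 4.72% higher and 12.1% lower. Immediate early and activation genes reach 46.4% higher and sensory receptor genes 40.8% lower.

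A few bright genes moved in opposite directions; apart from Tnfrsf4 they were listed after the values were seen, by the size of the smaller response. Tnfrsf4, the gene of the costimulatory receptor OX40, was at 1.77, 2.01, 1.94 and 2.23 on naive resting and 0.96, 1.16, 1.0 and 1.44 on naive stimulated arrays. In memory cells it went from 1.28, 1.45, 1.36 and 1.69 to 2.55, 2.31, 2.7 and 2.19. In both cell types the resting and stimulated arrays did not overlap, and the order was opposite. It fell by 0.85 ± 0.17 in naive and rose by 0.99 ± 0.16 in memory cells, a difference of responses of 1.84 ± 0.23 (adjusted p = 9.11e-05).

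Mpzl1, a membrane glycoprotein of the myelin P0 family, fell by 0.52 ± 0.20 in naive cells and rose by 1.46 ± 0.18 in memory cells, which held 2.64 less of it at rest and 0.66 less after stimulation. In the other direction, besides Irgm1, Igtp and Bcl6, Gbp5 rose by 1.15 in naive and fell by 0.67 in memory cells. Hsf1, the heat shock factor gene, met the same rule, but its other probes did not show it (0.11 and 0.37). The same holds for Irf3, a factor of the interferon beta gene, whose other probe gave a difference of 0.23 (adjusted p = 0.735), and for Ly6c1, a surface marker of memory CD8 cells, whose other probe gave -0.78 (adjusted p = 0.126). Of 3 other probes of Cd247, the zeta chain of the T cell receptor complex, 1 showed opposite responses (-0.43 in naive and 0.5 in memory cells) and 2 gave negative responses in both cell types.

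Of 22 NF-kappaB genes, 3 were higher (13.6%) and 2 lower (9.09%), against 4.72% and 12.1% of all genes tested. Of the 22, 20 had a mean level of 0 or more, where 5.96% of genes were higher and 4.18% lower. With arrays 2 and 3 averaged in every group 2 of the 22 were higher and 1 lower. The inhibitors Nfkbia (1.08 ± 0.19) and Nfkbid (1.57 ± 0.38) rose more in memory cells, which held less at rest. Rel, the gene of the NF-kappaB subunit c-Rel, went from -4.20, -5.29, -5.25 and -5.02 to 0.05, 0.51, 0.59 and 0.44 in naive cells and from -3.42, -3.73, -3.69 and -3.25 to -2.04, -1.12, -1.17 and -0.93 in memory cells. It rose more in naive cells, and the stimulated groups did not overlap. Its responses differed by -3.02 ± 0.38 (adjusted p = 0.000103).

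Of 17 NFAT and calcineurin genes, 3 were lower (17.6%), among them Nfatc1 (-1.06 ± 0.26), and 1 higher (5.88%), and with arrays 2 and 3 averaged in every group 2 were lower and none higher by the limma fit (4 and 1 at an unadjusted p of 0.05). Of 23 MAP kinase feedback genes, 2 were higher and 2 lower (8.7% each), and with that averaging 2 and 1. The phosphatases Dusp6 (1.1 ± 0.20) and Dusp2 (0.88 ± 0.18) were higher and the inhibitors Spry2 (-1.44 ± 0.36) and Spry4 (-1.53 ± 0.33) lower. Neither the Spry2 nor the Spry4 probe was well above background on all 16 arrays. That of Spry4 was so on no naive resting array, so its value is fitted and no measure of size. Among 34 genes of the naive and quiescent state, 5 were higher (14.7%) and 3 lower (8.82%), and with that averaging 2 and 1. Among all genes tested the shares were 4.72% higher and 12.1% lower. Among genes of mean level 0 or more they were 5.96% and 4.18%. Lef1 and Tcf7, paired factors of the naive programme that both fell, parted here. Lef1 fell less in memory cells (2.5 against 3.42) and Tcf7 more (3.82 against 2.7), while a second probe of Tcf7 gave a difference of -0.95 (adjusted p = 0.117).

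Few genes of growth programmes were called. None of 22 glycolysis, 26 sterol and fatty acid or 20 mitosis genes was called by the limma fit. At an unadjusted p of 0.05 there were 1 higher and 1 lower in glycolysis, 3 and 1 in sterol and fatty acid synthesis, and 0 and 1 in mitosis. Of 40 ribosome biogenesis genes 3 were higher and none lower by the limma fit (7 and 0 at an unadjusted p of 0.05). The 3 made up 7.5%, against 4.72% of all genes tested and 5.96% of genes of mean level 0 or more. With arrays 2 and 3 averaged in every group none of the 40 was called either way by the limma fit (5 and 0 at an unadjusted p of 0.05). Of 28 amino acid transport and ATF4 genes, 3 were higher (10.7%) and none lower by the limma fit. At an unadjusted p of 0.05 these were 6 and 1. With that averaging 1 of the 28 was higher. Of 26 nucleotide and polyamine synthesis genes, 2 were higher (7.69%) and none lower by the limma fit. At an unadjusted p of 0.05 these were 5 and 0. The list medians of ribosome biogenesis (0.33), translation (0.33) and amino acid transport (0.34) lay above the 0.00 of all genes tested. For bright genes as such the median was 0.16 at levels of 0 to 2 and 0.17 at 2 and above.

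Most of the most negative values belonged to dim probes whose arrays spread widely, and 12 of the 15 most negative genes by the naming rule share a feature of the probe. Each of the 12 holds at least 1 run of 6 bases from the C-rich telomere repeat CCCTAA, against none of the 15 most positive genes and 5.52% of genes tested. To show the feature, 30 bases of the 60-base probe are printed with the repeat bases in capitals. Pgk2, printed last, is not among the 15.
Angptl7: TAACCCTgaggtcactTAACCCattttCCC
Arhgap32: caggggtctCTAACCCTgaaccacaaggaa
Radx: tccctaTAACCCTAtaattttgtgatgtca
Pgk2: gaaccaactcaaCCTAACCtatatctcaac
These are bases 1 to 30 of the probes of Angptl7 (chr4:147485417-147485476, minus strand, mm7), Arhgap32 (chr9:32161835-32161894, plus) and Radx (chrX:134273600-134273659, plus), and bases 22 to 51 of that of Pgk2 (chr17:38247663-38247722, minus). The capitals of Angptl7 run on past base 30.

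Angptl7, an angiopoietin-like protein of the eye, was at -4.44, -2.41, -3.27 and 0.41 on naive resting and -0.77, 1.12, 0.52 and 1.29 on naive stimulated arrays. In memory cells it was at -2.02, -1.39, -2.8 and 0.85 at rest and at -5.29, -4.88, -4.23 and -4.29 after stimulation. The array numbered 4 was the highest at rest in both cell types. Its responses differed by -6.16 with an SE of 1.34, against an SE of 0.28 for Tbx21. Array 4 was also the highest at rest for Radx (-5.44 ± 1.05), at -1.09 and 0.04, and for Arhgap32 (-5.47 ± 1.25), at 0.66 and 1.17.

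Pgk2, a testis isoform of the glycolytic enzyme that is none of these 15, was not well above background on any stimulated memory array, and stimulated naive cells were at least 48.2-fold higher. Its naive resting arrays ranged from -7.47 to -1.47. Cdk5r2, with the most negative value of the 15, which are all above background on every array (-6.19 ± 1.58), holds no such hexamer, and 1 of its naive resting values was dropped as an outlier spot. Smg8, a kinase regulator of mRNA decay, and Spint2, a protease inhibitor, hold none either and were tight, at -4.87 ± 0.18 and -4.77 ± 0.32. Smg8 was at -4.39 to -4.07 and -0.79 to -0.55 in naive cells and at -1.41 to -0.91 and -2.74 to -2.5 in memory cells, with no overlap between any groups.

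Over all genes the number of repeat hexamers in the probe went with the share of lower calls. The share was 11.5% of 17388 genes with none, 14.7% of 699 with 1, 39.2% of 217 with 2 and 42.4% of 99 with 3 or more, and the median difference of responses was 0.01, -0.04, -0.68 and -1.67. The median SD within groups was 0.27, 0.29, 0.35 and 0.76. For the G-rich strand of the repeat the shares were 12.3%, 8.59%, 8.48% and 6.25%. Ranked by mean difference of responses, the 6 hexamers of the C-rich repeat were the 6 lowest of 3726, at -1.18 to -0.78. Of the 2233 lower calls, 230 hold such a hexamer, and without those probes 2013 genes were lower.

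**Figure D4:**
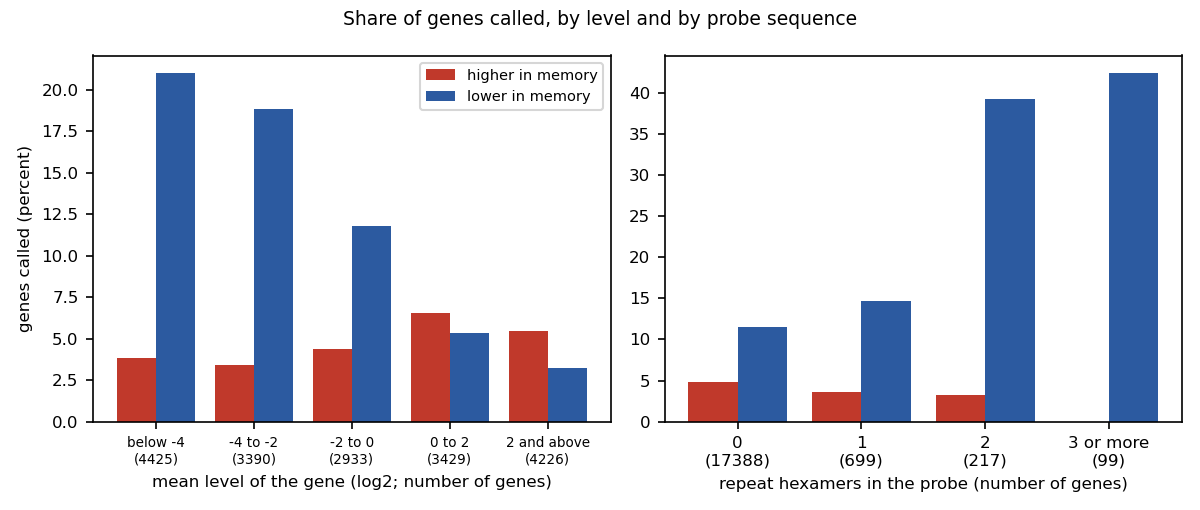
Share of genes called higher (red) or lower (blue) in memory cells, in percent, by the mean level of the gene (left, log2, bins with the number of genes) and by the number of telomere repeat hexamers in the probe (right). Lower calls fall from 21.0% below -4 to 3.24% at 2 and above, and rise from 11.5% with no hexamer to 42.4% with 3 or more.

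The level of the gene went with the calls as well. Lower calls made up 21.0% of 4425 genes with a mean level below -4 and 3.24% of 4226 genes at 2 and above, while higher calls made up 3.82% and 5.47%. Sensory receptor genes, which are not expected in T cells, gave 171 lower calls of 419 tested (40.8%) and 28 higher. Their median level was -5.17 to -4.56 on naive resting, -4.57 to -4.31 on naive stimulated, -4.61 to -4.27 on resting memory arrays, and -4.93 to -4.67 on those of stimulated memory cells. With the repeat hexamer probes left out the count was 159 of 398, and with the repaired normexp correction it was 45 of 419. Whether the level of dim probes or their sequence has a part in the other lower calls was not tested beyond these counts.

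**Figure D5:**
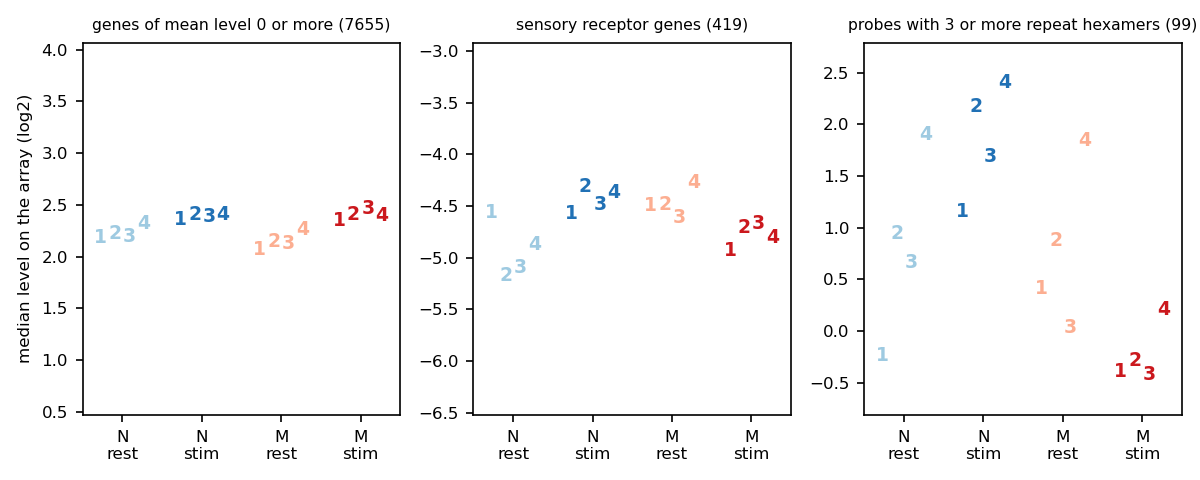
Median level on each array (vertical axes, log2; digits are array numbers 1 to 4) of 7655 genes with a mean level of 0 or more, of 419 sensory receptor genes and of 99 genes whose probe holds 3 or more repeat hexamers. In the panel of repeat hexamer probes the array numbered 4 is highest in every group, at 1.9, 2.4, 1.84 and 0.21, and stimulated memory arrays 1 to 3, at -0.42 to -0.28, are lower than every array of the other groups.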

How the data were processed

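Total RNA was amplified, labelled with Cy3 and hybridised to 1-colour Agilent mouse arrays, per the labels' protocols. The authors deposited scanner output in which each spot's intensity was background-subtracted and detrended by Feature Extraction 9.5.3.1 (design build mm7, NCBI35), per the file headers. The authors' deposited table of normalized intensity, whose making no source used here gives, has a median of 149 on every array, correlates with the scanner values at 0.9756 to 0.9844 across probes, and served as an alternative.

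From these, log2 of the processed intensity minus the array's 75th percentile (484.6 to 669.8) was computed for 41174 non-control probes, of which 59.3 to 66.5% were well above background on an array. The number of arrays limits the precision. Outlier spots (59 to 116 of 43379 an array) were dropped and 1 saturated spot kept. A probe was tested if well above background on at least 3 arrays of a group (27350 probes), and a gene was represented by its brightest probe. Symbols came from RefSeq for 14223 of 18403 genes. In 6041 genes with several probes, other probes are given for the genes described where their value or its test went the other way, and not for all. The plan had counted the 16 arrays singly; 15 samples were fitted, with naive resting arrays 2 and 3 averaged.

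All groups entered 1 limma fit (limma 3.58.1, R 4.3.3; Python 3.11.15, pandas 2.3.3, matplotlib 3.10.9). Tested on simulated data with 50 probes changed at each size, it recovered 48 at -3, 32 at -1.5, 32 at 1.5 and 45 at 3. Bounds set a group not well above background at the lowest signal well above background on its arrays. Genes were named by rule: the 15 most positive and 15 most negative values among genes above background on all 16 arrays and called also with quantile scaling, 8 such genes with opposite responses each way, up to 6 called members of each list, members whose role the text needs, and 8 genes below background in a group. Bright genes and genes without repeat hexamers were added after their values were seen. The members and lists were chosen with earlier results of these data known. Alternatives covered scaling, background, probe filter, probe choice, variance trend, replicate number and arrays left out. Some genes are not reported here.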

Additional observations from a re-analysis of the deposited data

Results flagged for a closer look

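The memory and naive responses differed, by the test of the difference itself, in 3102 genes. The difference of responses (log2, memory minus naive) was positive for the immediate early genes Fos (2.5), Egr2 (2.2), Nr4a1 (1.96) and Atf3 (1.59) and for Rgcc (3.06). It was positive for the cytokine and chemokine genes Il3 (5.92), Ccl1 (6.55), Il21 (5.11), Csf2 (4.02) and Il17f (3.41), of which all but Il17f are fitted values against a group not well above background and no measure of size, and for the surface protein genes Tnfrsf4 (1.84), Mpzl1 (1.98), Il18r1 (2.79) and Tnfsf11 (1.96). It was negative for the transcription factor genes Tbx21 (-5.84), Irf8 (-2.69), Rel (-3.02) and Bcl6 (-1.79). It was negative for the GTPase genes Irgm1 (-3.46), Tgtp1 (-3.72), Igtp (-2.22) and Gbp7 (-2.94), for Cxcl10 (-2.22) and Ccl4 (-1.4), and for the receptor genes Cxcr3 (-2.74) and Cd44 (-1.43). Ssb, the gene of the La RNA-binding protein, gave -3.64, while its other probe gave -1.19 (adjusted p = 0.0757 in the limma fit). The dim probes of Angptl7 (-6.16), Radx (-5.44), Pgk2 (-9.67) and Smg8 (-4.87) gave negative values, and that of Pgk2 is likewise against a group not well above background.

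Of 105 groups of 4 arrays, 8 had 1 array whose gap to the nearest other array, as a share of the group's range, exceeded the critical value of Dixon's test, and chance gives about 1 in 20. Array 1 was lowest for Egr2 in stimulated naive (6.68) and stimulated memory cells (7.10) and for Bcl6 in stimulated naive cells (3.07), and highest for Irgm1 in resting memory cells (4.26). Array 4 was highest for Il3 (-6.55) and Ccl1 (-6.72) in resting memory cells, both below background, and for Igtp in stimulated naive cells (7.48), and lowest for Ccl4 in resting memory cells (2.03).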

How the results depend on the processing

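Against 3102 called genes (869 higher, 2233 lower; 2069 among those above background on all arrays), normexp gave 139 (15, 124; 129), with its fit failing on 3 arrays. With those arrays repaired, an alternative chosen after seeing the data, it gave 2067 (964, 1103). The authors' table gave 1412 higher. Only probes above background on all arrays gave 1402 lower. Genes of mean level 0 or more gave 776 (456, 320; 776 above background on all arrays). Arrays 2 and 3 averaged in every group gave 1908 (307 higher; 1128 above background on all arrays). The last 2 settings were also chosen after seeing the data. Leaving out 1 sample gave 2452 to 3469 called, 585 to 1126 higher, 1779 to 2578 lower and 1582 to 2311 above background on all arrays.

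With the replicate number as a block over 16 single arrays, 4747 genes were called (1767 higher; 3465 above background on all arrays). Same-numbered arrays correlated at -0.302 to 0.72 in their deviations from group means (21 of 24 pairs over 0.1), and 13 of 16 arrays correlated best with their own number. As 3 pairs were not over 0.1 and no label says what the number marks, the arrays are not taken as paired. The number was also the array's position on its slide in every group, so number and position cannot be told apart. Values changed sign with normexp for Fut7 (0.14), Olfr319 (0.03) and Tnfsf13b (0.29), with the mean of probes for Eif4a1 (-0.35) and Rpl29 (-0.04), and without repeat hexamer probes for Zfp72 (0.40). Of 180 genes checked, 136 kept their call under every single sample left out. Cxcl10 missed the threshold with arrays 2 and 3 averaged in every group (adjusted p = 0.0555 in the limma fit). The slide as a block was not run, since slide and group cannot be told apart. Dim probes limit the lower calls: 21.0% of genes below a level of -4 were lower. So do repeat hexamer probes, with 42.4% lower among genes whose probe holds 3 or more.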
